A study of Rattus norvegicus with 6 samples.

Results

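The miRNAs described here are 8 hairpins that are known from red blood cells or from heart and skeletal muscle, and their reads in sperm RNA can serve as tracers of blood and muscle in sperm preparations. They were chosen by name for these roles: rno-mir-451, rno-mir-144 and rno-mir-486 as erythroid miRNAs, and rno-mir-1, rno-mir-133a, rno-mir-133b, rno-mir-206 and rno-mir-499 as striated muscle miRNAs. Each had 1 row among 379 rows of reads that matched both a rat miRNA hairpin and the genome, out of 26562 small RNA rows in all. Sperm was squeezed from the epididymis of wild type Wistar rats aged 5 months and put through a hypotonic shock in water against somatic cells. The HPD fathers had received a high-protein diet for 2 to 3 months from the age of 10 weeks, and the SD fathers a standard diet. Both groups weighed about 330 g at the start and were housed 2 rats per cage. Small RNA of 3 HPD fathers (libraries HPD2, HPD3 and HPD7) and 3 SD fathers (libraries CTRL1, CTRL2 and CTRL3) was sequenced, each library from 1 rat. Whether rats of 1 group shared a cage is not given in the sources used here. The labels name no batch. If there was one that went along with the diet, it and the diet cannot be told apart.

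miR-144 and miR-451 are made from 1 shared transcript that the erythroid factor GATA1 switches on, and miR-451 is cut by Argonaute2 without Dicer and is among the most plentiful miRNAs of mature red cells. miR-486 lies in the ankyrin gene ANK1 in human and mouse and is plentiful in red cells as well as in muscle. The muscle miRNAs, called myomiRs, are induced by MyoD, MEF2 and SRF: miR-1 and miR-133a are made in heart and skeletal muscle, miR-206 and miR-133b in skeletal muscle, and miR-499 comes from an intron of the slow myosin gene Myh7b. Mature sperm comes from neither lineage, while the epididymis holds blood vessels and smooth muscle.

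Mature sequences are given for 7 of the 8 hairpins, to show which of these miRNAs can be told apart by their letters. They are from RefSeq (build GRCr8), run 5′ to 3′ and have the seed, bases 2 to 8, in capitals. miR-486 is named only. On chromosome 10, on the plus strand, lie the neighbours Mir451a and Mir144, whose products share no seed:
rno-miR-451-5p: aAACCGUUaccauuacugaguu
rno-miR-144-3p: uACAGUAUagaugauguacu
rno-miR-144-5p: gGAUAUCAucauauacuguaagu

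The seed GGAAUGU was held by 3 of the 724 mature rat miRNAs in that table. They are miR-1 (chromosome 18, minus strand), miR-1b (chromosome 3, plus strand) and miR-206 (chromosome 9, plus strand). With positions counted from 1 at the 5′ end of rno-miR-1-3p, miR-1b differs by the single change G17A, and miR-206 by A11G, A21G and U22G:
rno-miR-1-3p: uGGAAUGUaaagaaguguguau
rno-miR-1b: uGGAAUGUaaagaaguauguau
rno-miR-206-3p: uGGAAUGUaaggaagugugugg

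The seed UUGGUCC was held by 2 of the 724. They are miR-133a (chromosome 18, minus strand, beside miR-1) and miR-133b (chromosome 9, plus strand, beside miR-206), which differ only by G22A in the last base:
rno-miR-133a-3p: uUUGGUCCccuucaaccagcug
rno-miR-133b-3p: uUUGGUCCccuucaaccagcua

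miR-499 (chromosome 3, plus strand, within Myh7b) shares its seed with no other entry:
rno-miR-499-5p: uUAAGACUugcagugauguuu

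A trimmed read that lacks its last base therefore cannot separate miR-133a from miR-133b, and 1 internal base separates miR-1 from miR-1b. Mir1 and Mir133a1 also lie over the miRNA genes Mir3571 and Mir3582 (miR-133c) on the other strand. Whether the counting used the strand is not given in the sources used here, so reads of these overlapping pairs are uncertain.

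The libraries held 5703625, 7697588 and 7448764 reads in HPD2, HPD3 and HPD7, against 7920000, 4141018 and 4254027 in CTRL1, CTRL2 and CTRL3. miRNAs took 11.3% to 15.1% of the reads in HPD libraries and 20.9% to 28.9% in SD libraries. Levels below are reads per 1000000 reads of the library (RPM) after TMM scaling, which sets libraries to each other by the bulk of all small RNA rows. On this scale the median log2 fold change (HPD over SD) was 0.03 over the 1858 rows tested and −0.86 over the 285 miRNA rows among them, so a miRNA that kept its place among the miRNAs also had a negative value. The sperm label was checked only for the presence of the germ cell miRNAs miR-34b, miR-34c and miR-449a. Their summed level was 10892 to 11125 RPM in HPD and 6435 to 9090 in SD libraries, which does not measure how pure the sperm was. CTRL1 was the highest of the 3 SD libraries in 167 of the 285 miRNA rows (58.6%), with a median ratio of 1.27 to the mean of the other two.

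**Figure D1:**
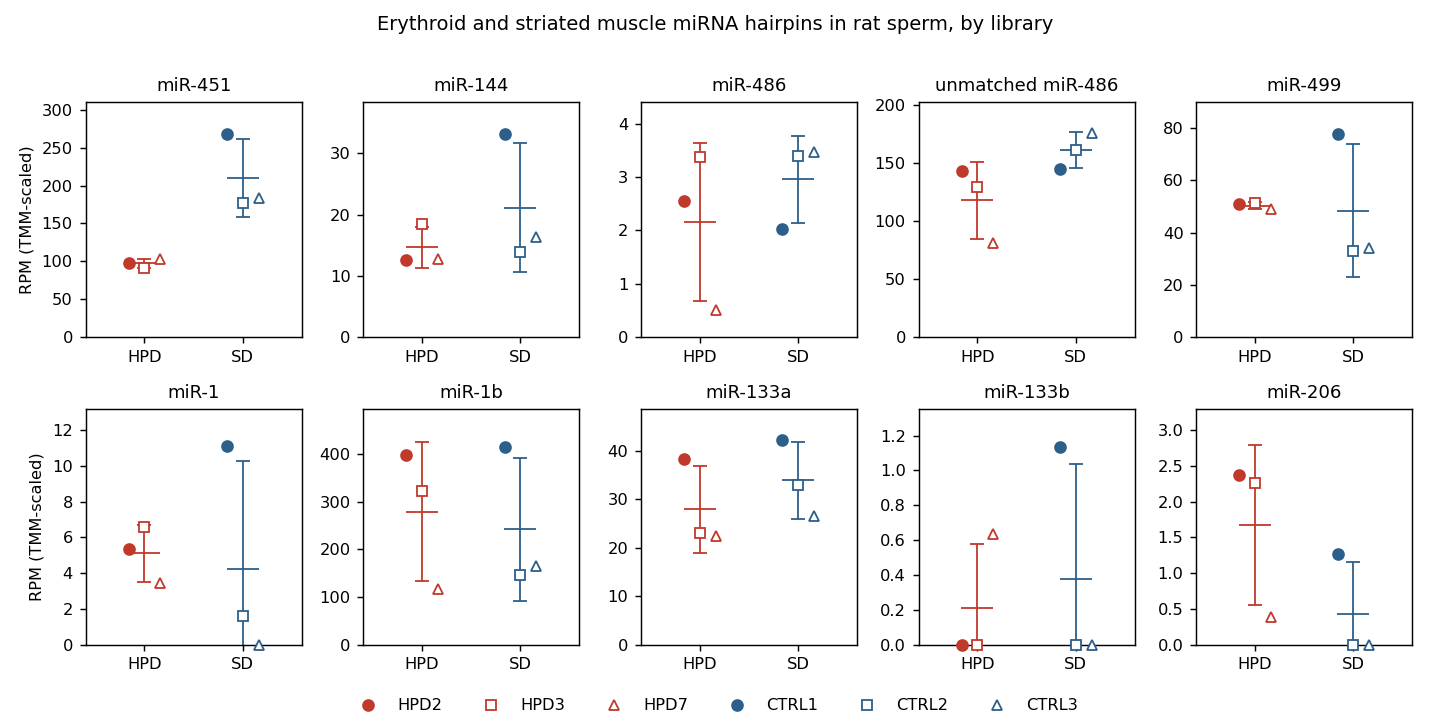
Level of each miRNA hairpin in TMM-scaled RPM, with 1 point per library, HPD left and SD right. Horizontal lines and bars are the mean ± SD (n = 3 each), with bars cut at 0, and each panel has its own axis. miR-451 and unmatched miR-486 are the panels in which all HPD points lie below all SD points, and CTRL1 is the highest SD point in all panels except those of miR-486.

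Of the 8 hairpins, 6 passed the filter on low counts, and miR-133b and miR-206 did not. One of the 6, miR-451, was lower in HPD sperm by the edgeR quasi-likelihood test (adjusted p of at most 0.05), where 6.40% of all rows and 29.1% of the miRNA rows were lower. None was higher, where 2.21% of all rows and 0.00% of the miRNA rows were. In either direction this was 1 of 6, against 8.61% of all rows. An unadjusted p under 0.05 was also found for 1 of the 6, against 17.5% of all rows and 46.7% of miRNA rows. The median log2 fold change was −0.53 over the 3 erythroid hairpins and 0.05 over the 3 muscle hairpins tested. Since lower calls were as frequent as 29.1% among miRNA rows, the single call does not stand out from the miRNAs.

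miR-451 had 98.2, 90.9 and 102 RPM in HPD2, HPD3 and HPD7, against 269, 177 and 183 in CTRL1, CTRL2 and CTRL3. The HPD libraries lay close together, and every one of them was below every SD library, as was the case for 13.1% of all rows and 47.4% of miRNA rows. No tested hairpin had all HPD libraries above all SD libraries, where 11.9% of all rows and 2.11% of miRNA rows did. The mean was 97.2 ± 5.82 in HPD and 210 ± 51.2 in SD sperm (SD, n = 3 each), a log2 fold change of −1.11 (SE 0.26, 95% interval −1.70 to −0.52, edgeR adjusted *p* = 0.0257). In bulk RNA, fewer cells of a type and less RNA per cell cannot be told apart. The call rested on the full set of libraries: with 1 library left out the adjusted p was 0.0334 to 0.156, and it stayed under 0.05 only without CTRL3. Without CTRL1, the SD library with the highest level, the log2 fold change was −0.87 (edgeR adjusted *p* = 0.0994).

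Against the other miRNAs the difference in miR-451 was small. Its log2 fold change was 0.25 below the median of the miRNA rows, and 113 of the 285 miRNA rows (39.6%) had a lower value. As a share of miRNA reads, miR-451 took 0.0577%, 0.0625% and 0.0962% in HPD2, HPD3 and HPD7, against 0.0928%, 0.0900% and 0.0855% in CTRL1, CTRL2 and CTRL3. HPD7 had the highest share and HPD2 the lowest, so the groups overlapped on this scale. The mean share was 0.0721% ± 0.0210 in HPD and 0.0894% ± 0.00370 in SD sperm. The 95% Wilson interval of the share in HPD7, 0.0898% to 0.103%, lay above that in HPD2, 0.0528% to 0.0630%, both libraries of 1 group. These intervals cover counting error only and treat each read as an independent molecule. PCR reads are not independent molecules, so the counting error can be larger than the intervals show. With miRNA rows scaled and fitted on their own, the log2 fold change was −0.29 (SE 0.25, edgeR adjusted *p* = 0.402).

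miR-144, the partner of miR-451 on the shared transcript, had 12.6, 18.5 and 12.8 RPM in HPD2, HPD3 and HPD7, against 33.2, 13.9 and 16.3 in CTRL1, CTRL2 and CTRL3. CTRL1 stood apart, and the other 5 libraries overlapped. The log2 fold change was −0.53 (SE 0.42, 95% interval −1.46 to 0.39, edgeR adjusted *p* = 0.675), and it was −0.02 without CTRL1. The interval holds both a fall as large as that of miR-451 and no change.

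The level of miR-451 relative to miR-144 was read within each library as the log2 ratio of their reads, which does not depend on library scaling. It was 2.96, 2.30 and 3.00 in HPD2, HPD3 and HPD7, against 3.02, 3.67 and 3.50 in CTRL1, CTRL2 and CTRL3. All HPD ratios lay below all SD ratios, but HPD7 and CTRL1 differed by little. Relative to miR-16, a miRNA plentiful in red cells and in many other cells, miR-451 was at −4.37, −4.55 and −4.31 in HPD and at −3.64, −3.73 and −4.01 in SD libraries. miR-16 itself had a log2 fold change of −0.48 (edgeR adjusted *p* = 0.269). Here too all HPD ratios were below all SD ratios. The ratio of miR-451 to miR-23a is used in plasma and serum as a gauge of red cell lysis. miR-23a itself fell in HPD sperm (log2 fold change −1.65, edgeR adjusted *p* = 0.00145), and relative to it the order was turned round. That ratio was −3.27, −3.30 and −3.21 in HPD and −3.34, −4.17 and −3.97 in SD libraries. All HPD ratios to miR-23a lay above all SD ratios, with HPD3 and CTRL1 almost level. Relative to unmatched miR-486, miR-451 was at −0.55, −0.51 and 0.34 in HPD2, HPD3 and HPD7, against 0.89, 0.13 and 0.06 in CTRL1, CTRL2 and CTRL3, with overlapping groups. The direction thus depended on the partner in the ratio. How often ratios of other miRNA pairs fail to overlap between the groups was not computed. The ratios were not tested.

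**Figure D2:**
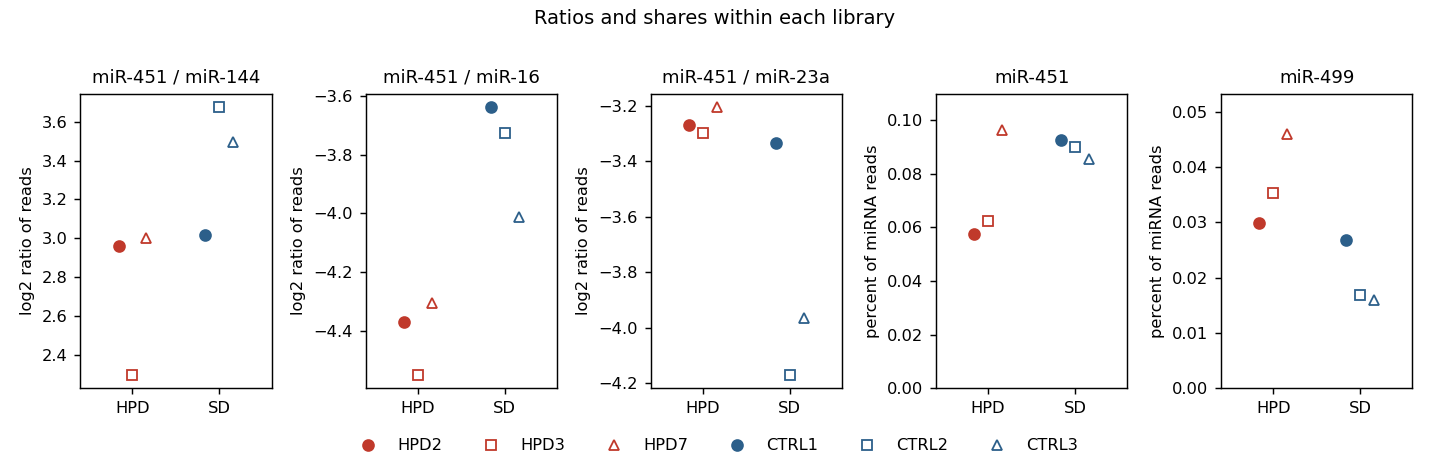
Log2 ratios of the reads of miR-451 to those of miR-144, miR-16 and miR-23a (left 3 panels), and percent of miRNA reads taken by miR-451 and miR-499 (right 2 panels), with 1 point per library, HPD left and SD right. HPD points lie below the SD points for the ratios to miR-144 and miR-16 and above them for the ratio to miR-23a. For the share of miR-451 the groups overlap, and for that of miR-499 all HPD points are above the SD points.

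miR-486 was counted in 2 rows, for reads that matched the genome and reads that matched the hairpin but not the genome. The matched row held 13, 24 and 4 reads in HPD2, HPD3 and HPD7, against 16, 15 and 16 in CTRL1, CTRL2 and CTRL3. The unmatched row held 728, 916 and 637 reads in HPD libraries and 1150, 712 and 813 in SD libraries, so nearly all miR-486 reads were in it. The matched row had 1.75%, 2.55% and 0.624% of the miR-486 reads in HPD2, HPD3 and HPD7, against 1.37%, 2.06% and 1.93% in CTRL1, CTRL2 and CTRL3, with overlapping groups. Only 5 miRNA rows of the table were of the unmatched kind (miR-15a, miR-30b, miR-335, miR-486 and miR-504), and miR-486 had 67.2% of their reads. A count of matched rows alone therefore leaves out nearly all of this miRNA.

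The unmatched row of miR-486 had 144, 129 and 80.6 RPM in HPD2, HPD3 and HPD7, against 145, 162 and 176 in CTRL1, CTRL2 and CTRL3. All HPD libraries were below all SD libraries, as in 13.1% of all rows and 47.4% of miRNA rows, with HPD2 and CTRL1 almost level. The mean was 118 ± 33.0 in HPD and 161 ± 15.5 in SD sperm, a log2 fold change of −0.45 (SE 0.28, 95% interval −1.08 to 0.18, edgeR adjusted *p* = 0.542). The matched row gave a log2 fold change of −0.46 (SE 0.78, edgeR adjusted *p* = 0.897), and the sum of both rows one of −0.45 (SE 0.29, edgeR adjusted *p* = 0.552). Without HPD7, the lowest HPD library in both rows, the matched row was at 0.15 and the unmatched row at −0.11. In contrast to miR-144, CTRL1 was the lowest SD library for miR-486, at 0.860 times the mean of the other SD libraries in the unmatched row and 0.588 times in the matched row.

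Summed over miR-451, miR-144 and both rows of miR-486, the erythroid level was 257, 242 and 196 RPM in HPD2, HPD3 and HPD7, against 449.2, 356.0 and 379.3 in CTRL1, CTRL2 and CTRL3. miR-451 made up 38.2%, 37.6% and 52.2% of it in HPD2, HPD3 and HPD7, against 59.8%, 49.7% and 48.3% in CTRL1, CTRL2 and CTRL3. Without the unmatched row, the sum was 113, 113 and 116 RPM in HPD2, HPD3 and HPD7, against 304, 194 and 203 in CTRL1, CTRL2 and CTRL3. All HPD sums lay below all SD sums either way, as did the levels of miR-451 alone, which made up much of them. Among single rows, 13.1% of all rows and 47.4% of miRNA rows had all HPD libraries below all SD libraries. No erythroid hairpin was at 0 in any library. All 3 log2 fold changes were negative, as were those of 234 of the 285 miRNA rows.

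**Figure D3:**
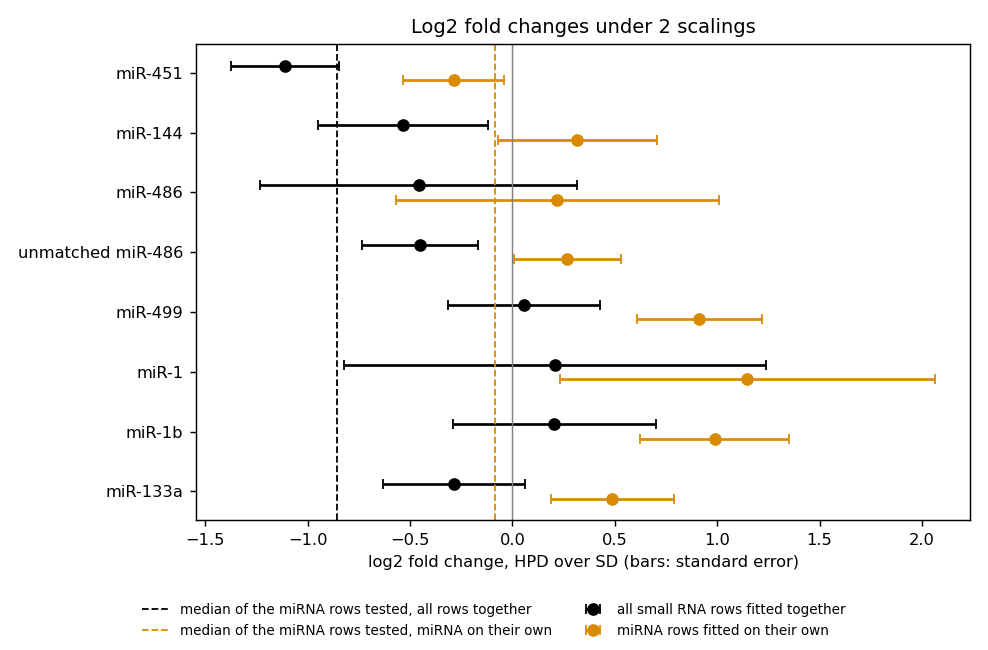
Log2 fold change (HPD over SD) of the tested rows with its standard error, with all small RNA rows fitted together (black) and with miRNA rows fitted on their own (orange). Dashed lines mark the median of the miRNA rows in each fit, −0.86 and −0.09. In the joint fit miR-451 lies to the left of the median line, and the other rows shown lie to the right of it.

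Among the muscle miRNAs, miR-499 was the steadiest in HPD sperm. It had 50.9, 51.2 and 49.0 RPM in HPD2, HPD3 and HPD7, against 77.8, 32.9 and 34.2 in CTRL1, CTRL2 and CTRL3. The HPD libraries lay between CTRL1 and the other SD libraries. The mean was 50.4 ± 1.20 in HPD and 48.3 ± 25.5 in SD sperm, a log2 fold change of 0.05 (SE 0.37, 95% interval −0.77 to 0.88, edgeR adjusted *p* = 0.974). Without CTRL1 it was 0.60, the highest value with 1 library left out.

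As a share of miRNA reads, miR-499 stood otherwise, with 0.0299%, 0.0352% and 0.0460% in HPD2, HPD3 and HPD7, against 0.0269%, 0.0168% and 0.0160% in CTRL1, CTRL2 and CTRL3. Every HPD library was above every SD library, as was the case for 16.5% of the 285 miRNA rows on this scale. The mean share was 0.0370% ± 0.00821 in HPD and 0.0199% ± 0.00608 in SD sperm. With miRNA rows fitted on their own, miR-499 was higher in HPD sperm (log2 fold change 0.91, SE 0.30, edgeR adjusted *p* = 0.0417), where 8.90% of the 281 miRNA rows of that fit were higher and 16.4% lower. In the joint fit, 240 of the 285 miRNA rows (84.2%) had a lower log2 fold change than miR-499. The call thus depended on what the libraries were scaled to.

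Most reads of the near-identical pair miR-1 and miR-1b were in the row of miR-1b, which held 645 and 759 reads in CTRL2 and CTRL3. The row of miR-1 itself was close to the limit of detection in SD sperm outside CTRL1. It had 27, 46.5 and 27 reads in HPD2, HPD3 and HPD7, against 88, 7 and 0 in CTRL1, CTRL2 and CTRL3. In RPM these were 5.32, 6.56 and 3.42 in HPD, against 11.1, 1.59 and 0 in SD libraries, where 0 reads allow up to 0.650 RPM in CTRL3 (3 reads). CTRL1 was above every HPD library, and CTRL2 and CTRL3 were below every HPD library. CTRL1 held 92.6% of the miR-1 reads of the SD group, at 14.0 times the mean level of the other SD libraries. The log2 fold change of 0.21 (SE 1.03, 95% interval −2.09 to 2.50, edgeR adjusted *p* = 0.965) therefore moved with each SD library left out: it was 2.65 without CTRL1 (edgeR adjusted *p* = 0.222), −0.00060 without CTRL2 and −0.36 without CTRL3.

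miR-1b, the relative that differs from miR-1 by the change at base 17, carried most of the reads of the pair. It had 398, 322 and 116 RPM in HPD2, HPD3 and HPD7, against 414, 147 and 165 in CTRL1, CTRL2 and CTRL3. CTRL1 was again the highest SD library, HPD7 was the lowest of all, and the groups overlapped. The log2 fold change was 0.20 (SE 0.50, 95% interval −0.90 to 1.31, edgeR adjusted *p* = 0.934), and that of both rows summed was 0.21 (SE 0.50, edgeR adjusted *p* = 0.935). miR-1 took 1.32%, 2.00% and 2.85% of the reads of both rows in HPD2, HPD3 and HPD7, against 2.61%, 1.07% and 0% in CTRL1, CTRL2 and CTRL3, where 0 of 759 reads allow a share of up to 0.395%. Both rows held a fraction of a read in HPD3 alone. Because the mature products differ by 1 base, the split of reads between the rows is uncertain.

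miR-133a, which is made from 1 transcript with miR-1, had 38.2, 23.0 and 22.4 RPM in HPD2, HPD3 and HPD7, against 42.2, 32.9 and 26.4 in CTRL1, CTRL2 and CTRL3. HPD2 lay within the SD range and the other HPD libraries below it. The mean was 27.9 ± 8.98 in HPD and 33.9 ± 7.91 in SD sperm, a log2 fold change of −0.28 (SE 0.35, 95% interval −1.06 to 0.49, edgeR adjusted *p* = 0.825). In contrast to the row of miR-1, miR-133a was present in every library with 122 or more reads, as was miR-1b with 645 or more. For miR-133a, CTRL1 was at only 1.42 times the mean of the other SD libraries, against 2.66 times for miR-1b.

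The skeletal muscle pair miR-206 and miR-133b had 16 reads or fewer in every library and was not tested. miR-206 had 12, 16 and 3 reads in HPD2, HPD3 and HPD7, against 10, 0 and 0 in CTRL1, CTRL2 and CTRL3. miR-133b had 0, 0 and 5 reads in HPD2, HPD3 and HPD7, against 9, 0 and 0 in CTRL1, CTRL2 and CTRL3. CTRL1 thus held all SD reads of both, while in HPD sperm they did not keep to the same library. A count of 0 allows up to 0.591 and 0.423 RPM in HPD2 and HPD3, and up to 0.682 and 0.650 in CTRL2 and CTRL3. miR-206 was at 2.37 and 2.26 RPM in HPD2 and HPD3 and at 0.380 in HPD7, against 1.26 in CTRL1, so the groups overlapped through HPD7 and CTRL1. For miR-133b, with 5 HPD and 9 SD reads in 1 library each, a difference between the groups was not detectable at this depth.

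**Figure D4:**
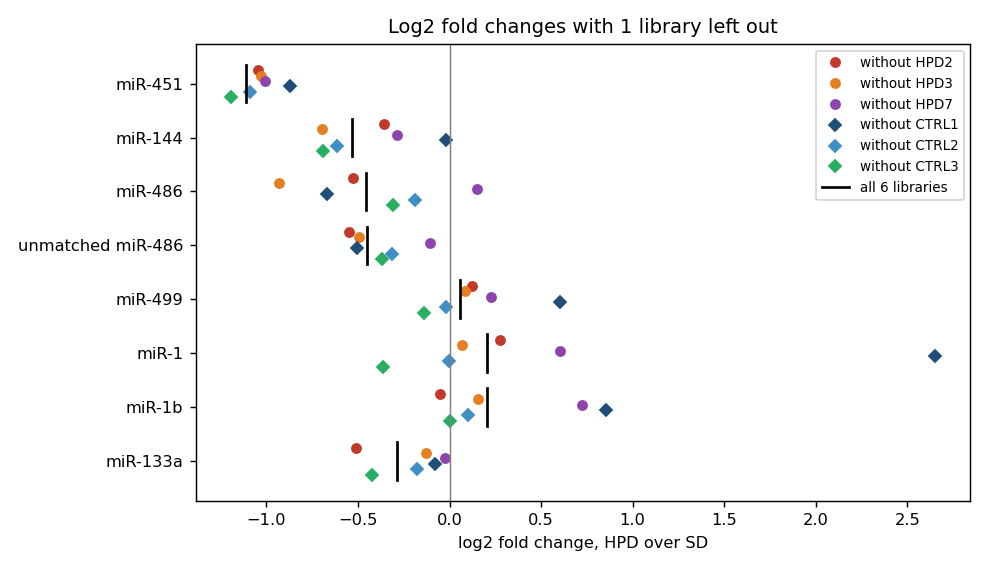
Log2 fold change (HPD over SD) of the tested rows with 1 library left out at a time (circles for HPD libraries, diamonds for SD libraries) and with all 6 libraries (black lines). miR-451 stays between −1.19 and −0.87, whereas leaving out CTRL1 moves miR-144 to −0.02, miR-499 to 0.60 and miR-1 to 2.65.

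The summed level of the 5 muscle hairpins was 96.8, 83.1 and 75.8 RPM in HPD2, HPD3 and HPD7, against 134, 67.5 and 60.7 in CTRL1, CTRL2 and CTRL3. In this sum the HPD libraries lay between CTRL1 and the other SD libraries. The sum leaves out miR-1b, whose level alone was higher in every library and had another order. It was 398, 322 and 116 RPM in HPD2, HPD3 and HPD7, against 414, 147 and 165 in CTRL1, CTRL2 and CTRL3. Many but not all markers of other cell types were also highest in CTRL1 among the SD libraries, as were 58.6% of the miRNA rows tested. They were 7 of 7 epithelial, 13 of 14 X-linked testis and 2 of 4 smooth muscle and stroma miRNAs. The count was 3 of 6 for leukocyte, 1 of 1 for endothelial and 0 of 3 for germ cell miRNAs. It was 7 of 9 for rows plentiful in red cells and many other cells, and 3 of 4 for those plentiful in muscle and many other tissues. The summed level of the smooth muscle and stroma miRNAs (miR-143, miR-145, miR-199a and miR-214) was 3871 to 10654 RPM in HPD libraries, against 16808, 6926 and 9220 in CTRL1, CTRL2 and CTRL3. Of the level in CTRL1, 14917 RPM were miR-143, while miR-199a was lowest in CTRL1 among the SD libraries (1021, against 1211 and 1039 in CTRL2 and CTRL3). The summed level of the 7 epithelial miRNAs was 4865 to 8693 in HPD libraries, against 14288, 7263 and 6912 in CTRL1, CTRL2 and CTRL3. The summed level of the X-linked testis miRNAs was 7366 to 11817 in HPD libraries, against 13261, 7267 and 6446 in CTRL1, CTRL2 and CTRL3. The part of any of these cells in the values of CTRL1 was not tested.

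Divided by the length of the mature product printed above (for miR-144 the 3p strand), the levels in HPD sperm stood in the order miR-1b, miR-451, miR-499, miR-133a, miR-144, miR-1, miR-206 and miR-133b. miR-451 was at 4.42 ± 0.265 RPM per base in HPD and 9.53 ± 2.33 in SD sperm, and miR-499 at 2.40 ± 0.0572 in HPD and 2.30 ± 1.22 in SD sperm. miR-133a was at 1.27 ± 0.408 in HPD and 1.54 ± 0.360 in SD sperm, and miR-144 at 0.732 ± 0.167 in HPD and 1.06 ± 0.528 in SD sperm. The SD order was the same. Neighbours whose ranges of mean ± SD overlapped were miR-133a and miR-144 as well as miR-206 and miR-133b in HPD sperm. In SD sperm these were miR-1b and miR-451, miR-499 and miR-133a, miR-133a and miR-144, miR-1 and miR-206, and miR-206 and miR-133b.

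Likeness between profiles was read over the 6 libraries, in which a library's share of miRNA reads moves all miRNA rows together. Pearson's r of the log2 levels was 0.67 between miR-451 and miR-144, 0.24 between miR-451 and matched miR-486 and 0.18 between miR-144 and matched miR-486. With unmatched miR-486, which held nearly all miR-486 reads, r was 0.53 for miR-451 and 0.25 for miR-144. Among the muscle rows it was 0.69 between miR-499 and miR-1b, 0.60 between miR-133a and miR-1b and 0.39 between miR-133a and miR-499. Across the lineages, miR-144 and miR-499 had an r of 0.69, above that of miR-451 and miR-144. Both rows of miR-486 had an r of 0.92 with each other. Among 211 other hairpins, the profiles most like that of miR-451 were those of miR-204 (r = 0.99) and miR-140 (r = 0.99), and the one most like miR-144 was that of miR-224 (r = 0.95). miR-133a was most like miR-200c (r = 0.94) and miR-200b (r = 0.93), miR-499 most like miR-881 (r = 0.87) and miR-205 (r = 0.84), and miR-1 most like miR-465 (r = 0.94). For miR-1 alone, 0.1 RPM was added before the log because CTRL3 had no read, and its r depends on that constant. Matched miR-486 was most like let-7e (r = 0.87), and all of these are descriptions over 6 libraries.

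Other miRNAs of blood and muscle were read from lists chosen for the cell types, with earlier results of these data known. The counts below stand beside 6.40% of all rows and 29.1% of miRNA rows that were lower. Of 9 rows of miRNAs plentiful in red cells and in many other cells (miR-16, miR-92a, miR-25, miR-185, miR-425, miR-363, miR-15b and miR-93), 2 were lower and none higher, with a median log2 fold change of −0.48 beside −0.86 for all miRNA rows. Those lower were miR-92a-1 (log2 fold change −1.50, edgeR adjusted *p* = 0.00272) and miR-92a-2 (−1.02, edgeR adjusted *p* = 0.0430), the 2 hairpin copies of miR-92a, whose reads the counting may split. miR-425 was at the other end with 0.16. Of the leukocyte miRNAs, 4 of 6 were lower, with a median of −1.14, and their summed level was 1136 ± 72.7 RPM in HPD and 2247 ± 226 in SD sperm. The endothelial miR-126a fell, with a log2 fold change of −2.11. The blood cell and vessel rows that were called were thus all on the lower side, as were all 83 miRNA rows called.

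All 4 miRNAs that are plentiful in muscle and in many other tissues were lower in HPD sperm, with a median log2 fold change of −1.67. They were miR-378a (−3.60), which lies in the metabolic coactivator gene Ppargc1b, miR-22 (−1.93), miR-30a (−1.41) and miR-26a (−1.32). Among all miRNA rows 29.1% were lower, with a median of −0.86. Since this list was chosen with earlier results of these data known, its count is a description only. The muscle-restricted miR-1, miR-133a and miR-499 had a median of 0.05 in the same fit, with an SE of 1.03 for miR-1. Of the smooth muscle and stroma miRNAs, 2 of 4 were lower, with a median of −1.32. Of the epithelial miRNAs 1 of 7 was lower, with a median of −0.71. Both counts stand beside the same 29.1% of miRNA rows and 6.40% of all rows. None of the 3 germ cell miRNAs miR-34b, miR-34c and miR-449a and none of 14 X-linked testis miRNAs was called in either direction, and their medians were 0.14 and 0.10, close to that of the muscle hairpins.

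**Figure D5:**
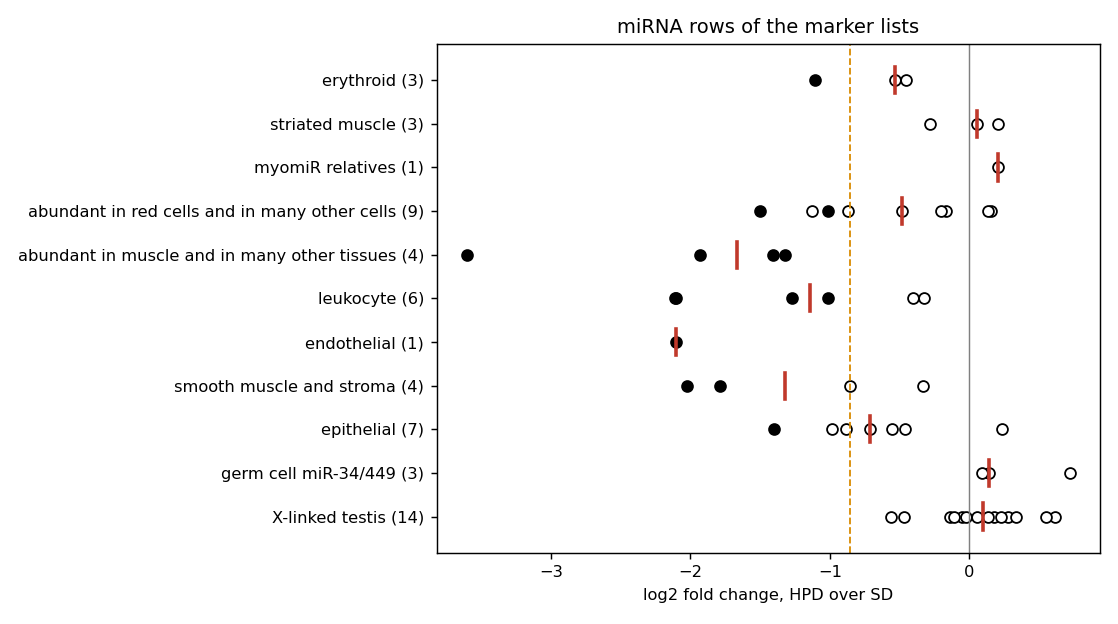
Log2 fold change (HPD over SD) of each tested miRNA row in the cell type lists, with the number of rows in brackets. Filled points had an adjusted p of at most 0.05, open points did not, red bars are list medians, and the dashed line is the median of all miRNA rows tested (−0.86). All filled points are on the lower side, and the striated muscle and testis lists lie around 0.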

How the data were processed

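Small RNA of epididymal sperm from 3 HPD and 3 SD fathers was analysed. The authors trimmed the reads, dropped short ones and annotated the rest with SPORTS1.0 (Rnor_6.0) and piRNAdb. Per the labels, Bowtie, DESeq, DESeq2 and the mouse build mm9 were named as well. The authors deposited estimated counts per annotated RNA, which are not normalized and can hold fractions of a read, and these were used here. A deposited normalized signal gave back the same counts, truncated, for 100% of values (tolerance 1e-06). The columns name the diet but not the numbered rat.

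After rounding, edgeR 4.0.16 (R 4.3.3) was run with TMM factors, filterByExpr (minimum count 10, minimum total 15) and the quasi-likelihood test, and p-values were adjusted by Benjamini-Hochberg over 1858 of 26562 rows. On truncated counts it called 120 rows lower and 44 higher, against 119 and 41. The snoRNA total row (0.293% to 1.45% of reads) and rows nested in others were left out of library sizes. With 4141018 to 7920000 reads per library, 3 reads were worth 0.379 to 0.682 RPM (reads per 1000000). The p-values rest on the spread between 3 libraries per group. The text names the 8 hairpins, their unmatched rows and near-identical relatives, list rows that were called or at a list's end, and the profiles most like each hairpin. miR-16 and miR-23a serve the ratios. The miRNAs and lists were chosen with earlier results of these data known. Alternatives were DESeq2 1.42.0, limma 3.58.1 on log2 values, other factors and filters, miRNA rows alone and leaving out each library. The fit was tested on simulated data.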

Additional observations from a re-analysis of the deposited data

How the results depend on the processing

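Of 17 alternatives, 9 kept the lower call of miR-451, DESeq2 among them (log2 fold change −1.08, adjusted *p* = 0.000323), and all 17 kept its direction. The call was lost with upper quartile factors (−0.87, edgeR adjusted *p* = 0.0829), with no filter on low counts (−0.86, adjusted *p* = 0.577, with 23981 rows tested) and with miRNA rows on their own (−0.29), so that 0 hairpins were then lower. Leaving out 1 library gave −1.19 to −0.87 and 0 to 1 lower hairpins, and 0 higher ones. With miRNA rows on their own, 1 hairpin was higher, miR-499 (0.91), and the direction changed for miR-144 (0.32), matched miR-486 (0.22), unmatched miR-486 (0.27), both summed (0.27), miR-133a (0.49) and miR-16 (0.31). With library size alone miR-499 was at −0.059. Leaving out 1 library gave −0.70 to −0.02 for miR-144, −0.93 to 0.15 for matched miR-486, −0.55 to −0.11 for unmatched and summed miR-486, −0.36 to 2.65 for miR-1, −0.51 to −0.02 for miR-133a, −0.14 to 0.60 for miR-499, −0.052 to 0.86 for miR-1b and −0.058 to 0.88 for miR-1 and miR-1b summed. Other scalings moved the median of all rows by more than 0.1: it was 0.28 with upper quartile factors and −0.09 with library size alone, beside 0.03. Relative to the miRNA median of the same fit, miR-451 was at −0.37 to −0.20 with all 6 libraries. Under a mean count of at least 50, matched miR-486 and miR-1 had no value, while unmatched miR-486 was at −0.33. The causes of these changes were not tested. No paired analysis was possible because the columns do not carry a single replicate number that ties them to rats. HPD and SD fathers were also different rats, and the sources used here name no pairing between them. A shared replicate number would therefore not in itself make a pair. Depth limits miR-133b, and miR-206 where it had no read, to the floors given above.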
